A study of Mus musculus with 6 samples.

Results

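The alveolar type 1 cell genes are 10 genes that mark the flat epithelial cell of the lung's air sacs: Ager, Hopx, Pdpn, Aqp5, Rtkn2, Clic5, Emp2, Akap5, Spock2 and Gprc5a. They were taken by name from the gene names printed for the non-control probes of a mouse expression array, which gave 10 of 36870 gene names and 23 of 56605 probes. All 10 were among the 20474 genes tested, and each was compared as tamoxifen over oil in every couple of samples hybridised together. The samples were lung tumors labelled tamoxifen (3 samples) or corn oil (3 samples). All mice, per the labels, were C57BL/6J and of the genotype Ror1f/f; CAG-CreER; SPC-hEGFRdel746-750, so the oil controls carried every allele too: floxed Ror1, a Cre recombinase that tamoxifen activates, and mutant human EGFR. Both agents were given over 4 weeks, between 16 and 20 weeks of age, when tumors were taken. The CAG promoter is active in most cell types, so Cre was not limited to tumor cells by its promoter, while the SPC promoter, that of surfactant protein C, drives the oncogene in alveolar epithelium. Whether a numbered sample is 1 mouse, 1 tumor or a pool is not stated in the labels, so the p-values measure only the spread between these samples.

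Alveolar type 1 cells are thin and wide, and gas passes through them between air and blood. In the adult lung they can derive from cuboidal alveolar type 2 cells, which make surfactant, through a transitional state rich in the keratin Krt8. The coactivators YAP and TAZ with the factor NKX2-1 hold the type 1 state. In bulk tumor tissue RNA of type 1 genes can come from tumor cells or from normal alveoli left in the sample. Fewer cells of a type and less RNA per cell cannot be told apart.

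Samples of the same number, 1 of tamoxifen and 1 of oil, were hybridised together on 2 arrays with the dyes exchanged, and such a pair of samples is called a couple. The scanner software called 51.8% to 58.8% of probes well above background, depending on array and channel. Ratios across genes, which are not independent replicates, correlated with r of 0.763 to 0.787 between the dye orientations of a couple, against -0.02 to 0.17 between couples. Ror1 itself, the targeted gene, was at 0.40 ± 0.21 (log2 ratio of tamoxifen over oil; SD, n = 3 couples), higher in the samples labelled tamoxifen and not past the test (limma, adjusted p = 0.690). Which exon is floxed is not in the labels, so this probe does not check the deletion, and directions below are those of the labels.

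All 23 probes of the 10 genes passed that background call in 6 of 6 readings of the tamoxifen samples and 6 of 6 of the oil samples, so RNA under the type 1 label was detectable throughout. The members did not share a direction of tamoxifen over oil. Aqp5 was lower in the tamoxifen tumors in every couple, Gprc5a less so, Akap5 was higher in every couple, and the other 7 were below 0 in couple 1 and above 0 in couple 3, as 23.8% of all tested genes were. With limma and Benjamini-Hochberg adjustment over all genes, 0 of 10 members passed the threshold of 0.05. The background of that test was 0%, that is 0 of 20474 genes, while 821 genes were lower and 614 higher at an unadjusted p under 0.05. At that looser threshold 1 of 10 members, Aqp5, was lower, beside 4.01% of all tested genes. The median log2 ratio was 0.003 over the members, with 5 below and 5 above 0, beside -0.004 over all tested genes. Levels below are normalized log2 signals of 1 probe per gene, and are compared only between samples for the same probe.

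**Figure D1:**
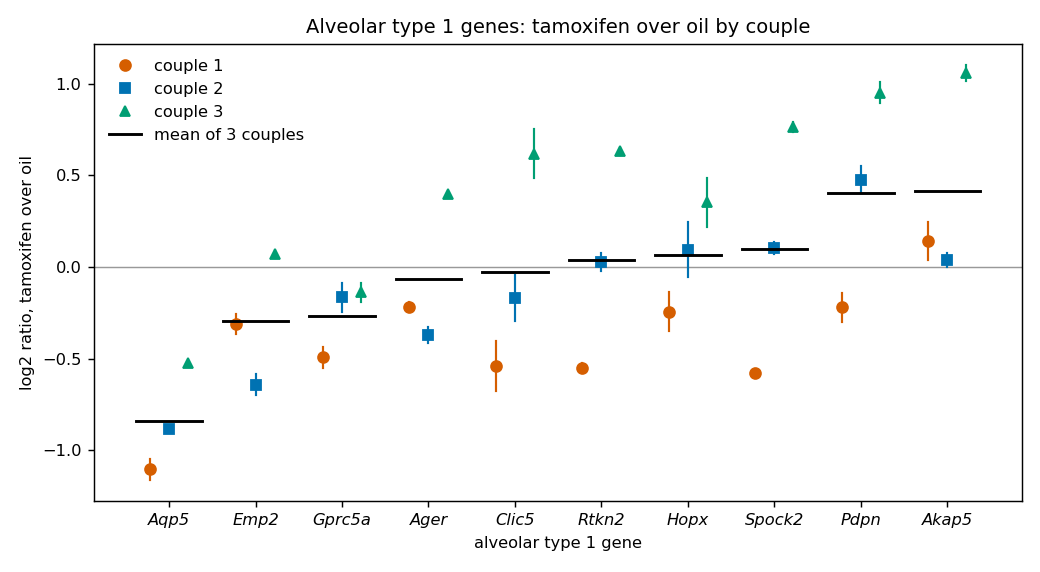
Log2 ratio of tamoxifen over oil (vertical axis) for the 10 alveolar type 1 genes, ordered by their mean. Symbols are the 3 couples, each the mean of 2 dye-swapped arrays whose values the thin lines join, and black bars are the mean of the couples. Aqp5 lies below 0 in all couples (-1.11, -0.89 and -0.53), while most genes have couple 1 below 0 and couple 3 above it.

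Aqp5, the water channel of the apical membrane, had the lowest ratio of the 10 members. Its probe at chr15:99425138-99425197 (mm9, plus strand) read 13.79, 14.21 and 14.57 in tamoxifen samples 1, 2 and 3, against 14.90, 15.10 and 15.09 in oil samples 1, 2 and 3. All tamoxifen samples lay below all oil samples, which holds for 7.12% of all tested genes. The log2 ratio was -1.11, -0.89 and -0.53 in couples 1, 2 and 3, a mean of -0.84 ± 0.29 (SD, n = 3 couples; SE 0.13). Signal was thus 1.79-fold lower in the tamoxifen tumors, and the ratio was below 0 on all 6 arrays. Aqp5 ranked 54 of 20474 by p and had a lower ratio than all but 0.415% of tested genes, but it missed the threshold (limma, adjusted p = 0.671). When the 6 arrays were fitted singly with the couple as a replicate block, Aqp5 passed (limma, adjusted p = 0.0317). In that fit 56 of 20474 genes passed, and dye swaps of the same samples counted as separate, correlated arrays. With a dye term added to that fit, Aqp5 did not pass (limma, adjusted p = 0.0694).

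Aqp5 was the lowest of the 10 members in each couple. Only 0.708%, 0.855% and 3.16% of all tested genes had a lower ratio than Aqp5 in couples 1, 2 and 3. A second probe, which ends 423 bases upstream of the first at chr15:99424655-99424714 (mm9, plus strand), is shown because it reads a separate stretch of the transcript.
Aqp5 probe A_55_P2071236: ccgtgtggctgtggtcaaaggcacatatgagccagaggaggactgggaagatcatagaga
This probe gave -0.81, -0.70 and -0.42 in couples 1, 2 and 3, a mean of -0.64 ± 0.20 (SD, n = 3 couples). In mice Aqp5 is also made by alveolar type 2 cells. Of 12 markers of these cells, 10 had a mean ratio below 0, with medians of -0.11, -0.23 and -0.26 in couples 1, 2 and 3. Their mean level was 14.82, 14.87 and 14.85 in tamoxifen samples 1, 2 and 3, against 15.04, 15.11 and 15.25 in oil samples 1, 2 and 3. The part of these cells in the Aqp5 result was not tested.

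The membrane receptors came next. Ager, which encodes RAGE, a receptor on the basal side of the cell that binds glycated proteins and matrix, had a level of 16.04, 15.77 and 16.27 in tamoxifen samples 1, 2 and 3, against 16.26, 16.14 and 15.87 in oil samples 1, 2 and 3. The groups overlapped: the highest reading of all 6 was tamoxifen sample 3 and the lowest tamoxifen sample 2. Couples 1, 2 and 3 gave -0.22, -0.37 and 0.40, a mean of -0.06 ± 0.41 (SD, n = 3 couples; limma, adjusted p = 0.942).

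Ager had 7 probes on chromosome 17, from 34735514 to 34737882 (mm9, plus strand), and all 7 were below 0 in couples 1 and 2 and above 0 in couple 3. Their ratios ran from -0.44 to -0.11 in couple 1, from -0.37 to -0.18 in couple 2 and from 0.34 to 0.52 in couple 3. Among them 3 are printed because they cross gaps in the genome at a stretch of letters they have in common, and so read joined pieces of Ager transcripts. Each has 60 bases but a larger mapped span, so that it skips 330, 203 and 207 genomic bases in the order printed. Capitals mark the 12 bases that all 3 share.
Ager probe A_66_P124640, chr17:34737069-34737458: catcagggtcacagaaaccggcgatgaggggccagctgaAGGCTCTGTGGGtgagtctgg
Ager probe A_55_P2718122, chr17:34737404-34737666: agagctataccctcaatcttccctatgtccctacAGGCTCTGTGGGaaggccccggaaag
Ager probe A_55_P2745215, chr17:34737403-34737669: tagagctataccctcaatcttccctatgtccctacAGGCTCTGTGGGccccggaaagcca
The last pair share 46 bases, overlap in what they bind and are no independent readings of each other. The mean ratios were -0.03, -0.01 and -0.06 in the order printed, with SDs of 0.39, 0.46 and 0.46 (n = 3 couples). None of the 7 Ager probes stood apart in sign.

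Gprc5a, an orphan receptor induced by retinoic acid and known as a lung tumor suppressor in mice, read 14.05, 13.99 and 14.16 in tamoxifen samples 1, 2 and 3, against 14.55, 14.15 and 14.30 in oil samples 1, 2 and 3 (chr6:135034590-135034649, mm9, plus strand). The groups overlapped by 1 pair of readings, as tamoxifen sample 3 lay above oil sample 2. In couples 1, 2 and 3 the ratio was -0.49, -0.17 and -0.14, a mean of -0.27 ± 0.20 (SD, n = 3 couples; limma, adjusted p = 0.690). Gprc5a and Aqp5 were lower on all 6 arrays, which 7.19% of tested genes were. These 2 of 10 members were also the ones lower in all 3 couples, against 16.4% of all tested genes, a share close to the members' own.

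**Figure D2:**
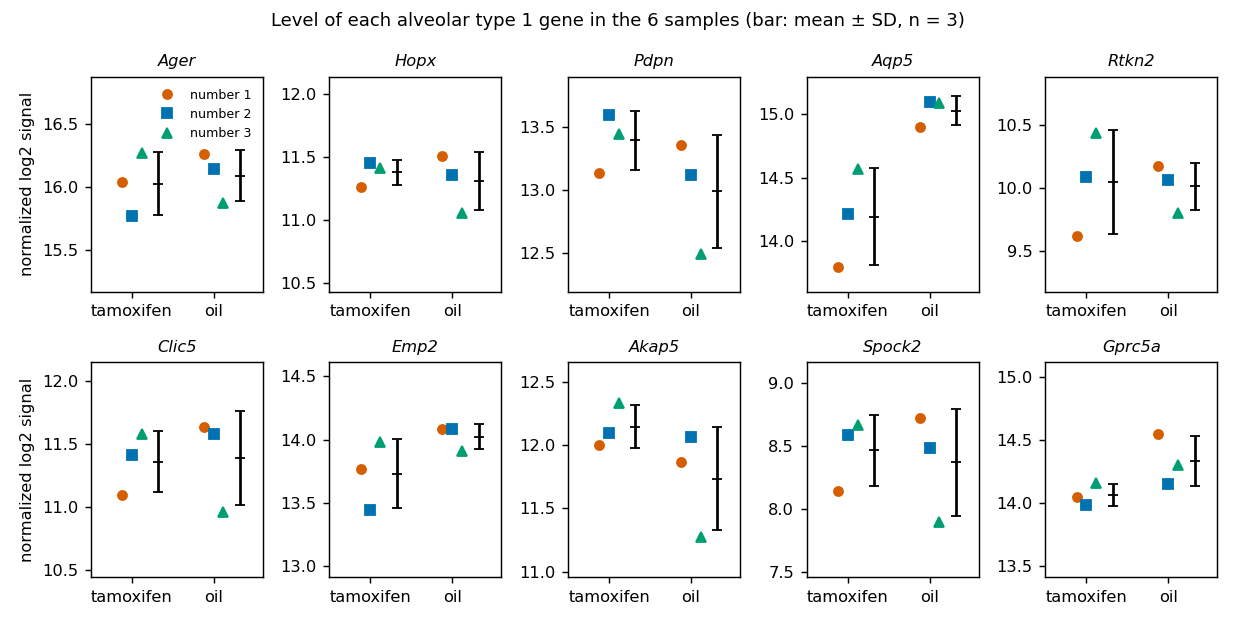
Normalized log2 signal (vertical axis, the same height of scale in every panel) of each alveolar type 1 gene in the 3 tamoxifen samples (left) and the 3 oil samples (right). Symbols give the sample number, and bars the mean ± SD of 3 samples. The groups are apart for Aqp5 only, and oil sample 3 is the lowest oil sample in 8 of 10 panels.

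Among the proteins that shape the membrane, Pdpn was the furthest above 0. Pdpn, or podoplanin, is a mucin-like glycoprotein whose antibodies mark type 1 cells and lymphatic vessels. It read 13.14, 13.60 and 13.45 in tamoxifen samples 1, 2 and 3, against 13.36, 13.12 and 12.49 in oil samples 1, 2 and 3 (chr4:142857423-142857482, mm9, minus strand). Oil sample 3 stood well below the other 5, and the groups overlapped through tamoxifen sample 1 and oil sample 1. Its ratio was -0.22, 0.48 and 0.95 in couples 1, 2 and 3, a mean of 0.40 ± 0.59 (SD, n = 3 couples; limma, adjusted p = 0.733). In couple 3 only 0.625% of tested genes had a higher ratio than Pdpn.

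Pdpn is also known from lymphatic endothelium and mesothelium, and markers of both were read beside it. Of 6 lymphatic markers 4 were tested, with a median ratio of 0.03 and medians of -0.14, 0.12 and 0.03 in couples 1, 2 and 3. The defining factor Prox1 passed the background call in 3 of 6 readings of tamoxifen samples and 3 of 6 of oil samples, and the receptor Flt4 in 4 of 6 and 1 of 6, so neither was tested. Lyve1, a hyaluronan receptor, was at 0.07 ± 0.29, Mmrn1, a multimerin, at -0.05 ± 0.15, and Reln, reelin, at 0.03 ± 0.09 (SD, n = 3 couples). Of 6 mesothelial markers 3 were tested and all were below 0. They were Upk1b at -0.28 ± 0.17, Wt1 at -0.14 ± 0.06 and Msln, mesothelin, at -0.48 ± 0.78. Of the other 3, Upk3b passed the background call in 1 of 6 readings of tamoxifen samples and 3 of 6 of oil samples. The mean level of the tested mesothelial markers was 7.37, 7.32 and 7.45 in tamoxifen samples 1, 2 and 3, against 7.66, 7.32 and 8.07 in oil samples 1, 2 and 3. That of the lymphatic markers was 8.39, 8.83 and 8.47 in the tamoxifen samples, against 8.56, 8.70 and 8.37 in the oil samples. Their part in the Pdpn values was not tested.

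Emp2, a tetraspan protein of the plasma membrane, read 13.77, 13.44 and 13.98 in tamoxifen samples 1, 2 and 3, against 14.08, 14.08 and 13.91 in oil samples 1, 2 and 3 (chr16:10281969-10282028, mm9, minus strand). Tamoxifen samples 1 and 2 lay below every oil sample, and tamoxifen sample 3 lay above oil sample 3. Couples 1, 2 and 3 gave -0.31, -0.64 and 0.07, a mean of -0.29 ± 0.36 (SD, n = 3 couples; limma, adjusted p = 0.711). Emp2 was the second lowest of the members in couple 2, where 1.85% of tested genes were lower still.

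Clic5, which links membranes to the actin cortex through ezrin, read 11.09, 11.41 and 11.58 in tamoxifen samples 1, 2 and 3, against 11.63, 11.58 and 10.96 in oil samples 1, 2 and 3 (chr17:44416979-44417038, mm9, plus strand). The lowest reading was oil sample 3 and the next tamoxifen sample 1, and the tamoxifen range lay within the oil range. In couples 1, 2 and 3 the ratio was -0.54, -0.17 and 0.62, a mean of -0.03 ± 0.59 (SD, n = 3 couples; limma, adjusted p = 0.986). A second probe under this name, mapped 28398 bases upstream of the first, gave the same signs but smaller values, -0.05, -0.05 and 0.08. That probe is annotated to another transcript record than the first. An offset added to both channels pulls ratios of dim probes toward 0. The cause of the smaller values was not tested.

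The intracellular members and the secreted Spock2 followed. Hopx, a homeodomain protein that does not bind DNA itself and marks type 1 cells and their precursors, read 11.26, 11.45 and 11.41 in tamoxifen samples 1, 2 and 3, against 11.51, 11.36 and 11.06 in oil samples 1, 2 and 3 (chr5:77516624-77516683, mm9, minus strand). The tamoxifen readings all lay between the lowest and the highest oil reading. Its ratio was -0.24, 0.09 and 0.35 in couples 1, 2 and 3, a mean of 0.07 ± 0.30 (SD, n = 3 couples; limma, adjusted p = 0.919). Its dye orientations differed by 0.30 in couple 2, the widest such gap of any member, so the sign there is not settled by that couple alone.

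Spock2, a secreted proteoglycan of the testican family, read 8.14, 8.59 and 8.67 in tamoxifen samples 1, 2 and 3, against 8.72, 8.49 and 7.90 in oil samples 1, 2 and 3 (chr10:59596162-59596221, mm9, plus strand). The highest and the lowest reading were both oil samples. Couples 1, 2 and 3 gave -0.58, 0.10 and 0.76, a mean of 0.10 ± 0.67 (SD, n = 3 couples; limma, adjusted p = 0.944). The step between couples 1 and 3 was 1.34 on the log2 scale, the largest of the 10 members. A second probe gave -0.35, 0.11 and 0.82.

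Rtkn2, a rhotekin family protein that binds small GTPases, read 9.62, 10.09 and 10.44 in tamoxifen samples 1, 2 and 3, against 10.17, 10.06 and 9.80 in oil samples 1, 2 and 3 (chr10:67505171-67505230, mm9, plus strand). The lowest and the highest reading were both tamoxifen samples. In couples 1, 2 and 3 the ratio was -0.55, 0.03 and 0.63, a mean of 0.04 ± 0.59 (SD, n = 3 couples; limma, adjusted p = 0.980). All 4 Rtkn2 probes had the same sign in each couple. Those of transcripts that end further downstream, at chr10:67522431-67522488 and chr10:67522177-67522236 (mm9), reached 1.27 and 1.11 in couple 3, against 0.63 and 0.69 for the upstream pair. The upstream probe nearest to the first is printed, since it reads a separate stretch with nearly the same values of -0.48, 0.14 and 0.69.
Rtkn2 probe A_52_P27482, chr10:67504243-67504302: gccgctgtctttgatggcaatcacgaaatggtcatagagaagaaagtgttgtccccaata

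Akap5, a scaffold that anchors protein kinase A and calcineurin at the membrane, read 12.01, 12.10 and 12.34 in tamoxifen samples 1, 2 and 3, against 11.87, 12.06 and 11.28 in oil samples 1, 2 and 3 (chr12:77434981-77435040, mm9, plus strand). The groups overlapped, as tamoxifen sample 1 lay below oil sample 2. Akap5 was the only member higher in all 3 couples, as 13.9% of tested genes were. In couple 2 its sign changed with the dye: 0.08 with tamoxifen in Cy5 and -0.002 with tamoxifen in Cy3. Its ratio was 0.14, 0.04 and 1.06 in couples 1, 2 and 3, a mean of 0.41 ± 0.56 (SD, n = 3 couples; limma, adjusted p = 0.720). The mean thus came mostly from couple 3, where oil sample 3 was the lowest of the 6 and 0.440% of tested genes had a higher ratio. A second probe, 3953 bases upstream of the first, gave 0.18, 0.16 and 1.01 and is printed because it reads a separate stretch. It was read in the same samples on the same arrays, so it does not repeat the step in other samples.
Akap5 probe A_66_P101963, chr12:77430968-77431027: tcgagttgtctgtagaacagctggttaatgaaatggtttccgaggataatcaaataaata

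**Figure D3:**
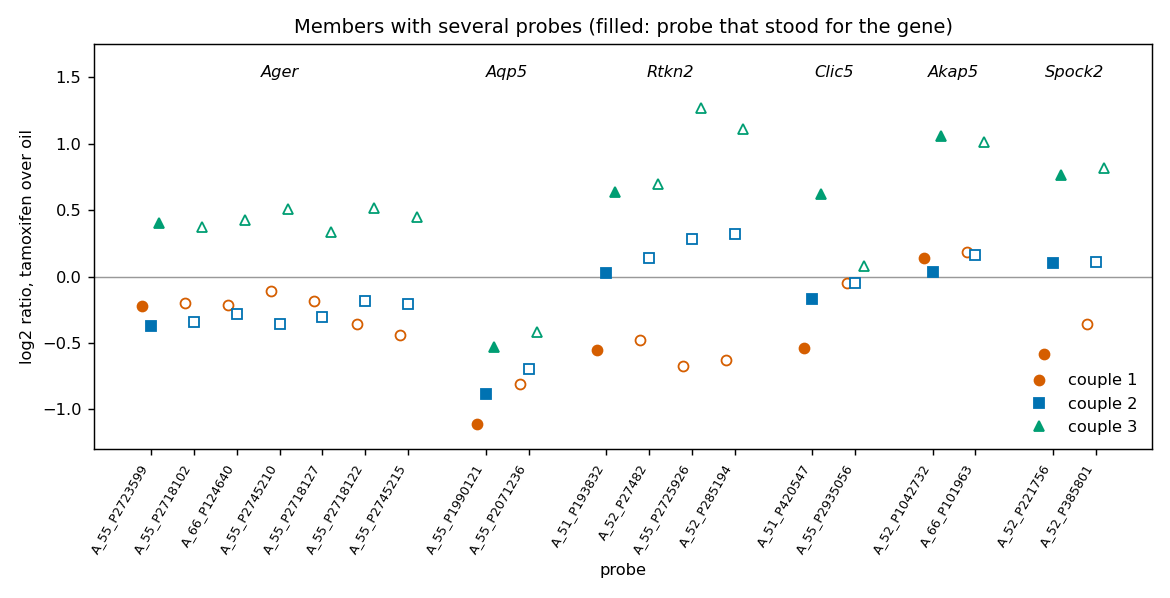
Log2 ratio of tamoxifen over oil (vertical axis) for each probe of the 6 members that had several, by couple. Filled symbols are the probe that stood for the gene and open symbols the others. Every probe kept the sign of its gene in each couple, from Ager (7 probes) and Rtkn2 (4 probes) to the flat second Clic5 probe.

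Most of the 10 genes had ratios of one sign in couple 1 and of the other in couple 3. Every member, Aqp5, Gprc5a and Akap5 included, had a higher ratio in couple 3 than in couple 1. The step ran from 0.36 (Gprc5a) to 1.34 (Spock2), and how many of all tested genes rose likewise was not counted. In couple 1, 9 of 10 were below 0, beside 51.4% of all tested genes. In couple 2 it was 5 of 10, beside 50.2%. In couple 3, 8 of 10 were above 0, beside 48.9% of all tested genes. Their medians were -0.40, -0.07 and 0.51 in couples 1, 2 and 3, while those of all tested genes were -0.008, -0.001 and -0.005. Per sample, the mean level of the members was 12.29, 12.47 and 12.69 in tamoxifen samples 1, 2 and 3. In oil samples 1, 2 and 3 it was 12.70, 12.61 and 12.27. The extremes thus sat in both groups: tamoxifen sample 1 was the lowest of its group for 7 of 10 members, and oil sample 3 the lowest of its group for 8 of 10. Differences between couples were not tested, since each has 1 sample of a kind.

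Proliferation genes moved in the same order of couples as the type 1 genes. Of 8 such genes, 7 were below 0 in couple 1, 1 in couple 2 and 0 in couple 3, with medians of -0.53, 0.18 and 1.09. Their mean level was 9.82, 10.26 and 10.09 in tamoxifen samples 1, 2 and 3, against 10.31, 10.01 and 9.02 in oil samples 1, 2 and 3, so that oil sample 3 was again the lowest of all. Mcm2, a subunit of the replicative helicase, was at 0.29 ± 0.24, Rrm2, a subunit of ribonucleotide reductase, at 0.63 ± 0.72 and Top2a, a topoisomerase, at 0.51 ± 0.92 (SD, n = 3 couples), and none of the 8 passed the test. The part of dividing cells in the type 1 values was not tested.

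Across the 6 samples the members fell into looser and tighter pairs. Hopx and Spock2 had a Pearson r of 0.970 (Spearman 0.943), Clic5 and Spock2 0.954 (Spearman 0.943), and Hopx and Pdpn 0.928 (Spearman 0.771). Aqp5 had r of -0.442 against Pdpn (Spearman -0.600) and -0.440 against Akap5 (Spearman -0.314). Gprc5a was close to this against Akap5 (r -0.437, Spearman -0.543), so the trait was not particular to Aqp5. The highest r of Aqp5 was with Emp2 (r 0.671, Spearman 0.771), followed by Gprc5a (r 0.629, Spearman 0.543). Ager had its highest r with Emp2 as well (r 0.805, Spearman 0.714). By Pearson r the first 3 are the highest and the pairs of Aqp5 with Pdpn and Akap5 the lowest of 45; Spearman orders some pairs otherwise, with Ager nearest to Clic5 (0.771). They are given as a description over 6 samples that share arrays by couple.

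Outside the list, the genes whose 6 levels were most like a member's had r of 0.985 to 0.998, the top of a search over all other tested genes. They were Ckap4 and Dnph1 for Ager, Bnip2 and Snrk for Rtkn2, Nup107 and Trim30d for Clic5, Maml2 and Arhgef39 for Spock2, and Camta1 and Tmem245 for Gprc5a. Pdpn was followed most closely by Top2a (r 0.995) and Akap5 by Oip5 (r 0.998), Hopx by the histone genes H2ac15 and H2ac20, Emp2 by 9930012K11Rik and Tagln2, and Aqp5 by Pax4. The other near genes of Pdpn, Akap5 and Aqp5 did not match a RefSeq symbol here.

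Promoter sequence was read as 250 bases before to 50 after the start of transcription in RefSeq (GRCm38.p6). It was at hand for 8 members, with 9 promoters. The core letters of NKX2 factors, CAAGTG on either strand, stood in 2 of the 9 promoters and in 13.6% of all 32851 promoters. With 9 promoters, this count does not set the members apart from all promoters. The matches were in Spock2 and in 1 Hopx promoter, while the other Hopx promoter, at chr5:77115074-77115373, had none. Each match began within the transcribed part, 33 bases from the start in Spock2 and 35 in Hopx. The core letters of TEAD factors, GGAATG on either strand, stood in 0 of the 9 and in 14.7% of all. The motifs do not overlap each other. The promoters of Spock2 and of Hopx with this match are printed with the CAAGTG letters, or CACTTG on the other strand, in capitals.
Spock2, chr10:60106007-60106306 (GRCm38.p6, plus strand): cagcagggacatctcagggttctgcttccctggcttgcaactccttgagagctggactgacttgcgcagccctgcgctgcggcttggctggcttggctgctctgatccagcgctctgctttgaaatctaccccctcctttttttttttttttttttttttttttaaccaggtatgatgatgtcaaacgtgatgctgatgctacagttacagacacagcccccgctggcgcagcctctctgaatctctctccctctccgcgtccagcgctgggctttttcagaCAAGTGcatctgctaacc
Hopx, chr5:77095218-77095517 (GRCm38.p6, minus strand): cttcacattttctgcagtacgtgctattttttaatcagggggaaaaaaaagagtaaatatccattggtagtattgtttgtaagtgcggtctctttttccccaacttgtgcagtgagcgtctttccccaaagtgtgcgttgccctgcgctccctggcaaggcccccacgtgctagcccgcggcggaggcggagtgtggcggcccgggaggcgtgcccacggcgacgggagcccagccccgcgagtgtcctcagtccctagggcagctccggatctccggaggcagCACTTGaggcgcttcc
A match is a description of letters, and no binding was measured.

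A wider list of 20 other alveolar type 1 genes, all tested, followed the couples like the 10 members. Of these 18, 12 and 2 were below 0 in couples 1, 2 and 3, with medians of -0.49, -0.07 and 0.48. Over all couples 14 were below and 6 above 0, with a median of -0.11, and 0 of 20 passed the test (smallest adjusted p = 0.691, limma). Their mean level was 9.83, 10.07 and 10.26 in tamoxifen samples 1, 2 and 3, against 10.25, 10.22 and 9.83 in oil samples 1, 2 and 3.

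By p, the first of them was Igfbp2, an insulin-like growth factor binding protein of mature type 1 cells, at 0.39 ± 0.42, with 0.31, 0.02 and 0.84 in couples 1, 2 and 3. Its tamoxifen levels all lay above its oil levels, which 1 of 20 genes showed and 5.21% of all tested genes, a share close to the list's own. Flrt3, an adhesion protein, was at -0.20 ± 0.24 (SD, n = 3 couples). The basement membrane collagens Col4a3 and Col4a4, which lie head to head and share a promoter, had -0.83, 0.09 and 0.57 against -0.76, 0.09 and 0.61. These collagens were named after their values were seen.

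Of 15 genes of the transitional state, 11 were below and 4 above 0, with a median of -0.18. Their medians were -0.51, -0.27 and 0.06 in couples 1, 2 and 3. None passed the test (smallest adjusted p = 0.690, limma), and 3 of 15 had all tamoxifen levels below all oil levels, beside 7.12% of all tested genes. These 3 were the stress regulator Nupr1 at -1.06 ± 0.46, Ndrg1, which hypoxia induces, at -0.53 ± 0.40, and the keratin Krt8 at -0.55 ± 0.51 (SD, n = 3 couples). Nupr1 was at -1.58, -0.72 and -0.86 in couples 1, 2 and 3. Krt18, the partner keratin of Krt8, was at -0.52 ± 0.54 and the keratin Krt19 at -0.16 ± 0.73. The 4 above 0 were named after their values were seen. They included the cell cycle inhibitor Cdkn1a at 0.50 ± 0.48, which was above 0 in all couples, and the growth factor gene Hbegf at 0.25 ± 0.46. The others were the integrin gene Itgb6 at 0.14 ± 0.83 and Tm4sf1 at 0.07 ± 0.38. In couple 3 the transitional list was near 0 where the type 1 members were above it; the difference between the lists was not tested.

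Of 11 regulators and targets of YAP and TAZ, 5 were below and 6 above 0, with a median of 0.01, and 0 passed the test. Their medians were -0.14, 0.03 and 0.29 in couples 1, 2 and 3, where 7, 5 and 1 of them were below 0. Ajuba, a LIM protein that restrains the kinases LATS, was at 0.45 ± 0.24, and Amotl2, an angiomotin that binds YAP, at 0.35 ± 0.21, both above 0 on all 6 arrays, as 6.05% of all tested genes were. Tead1, the DNA-binding partner of YAP, was at -0.26 ± 0.09 (SD, n = 3 couples).

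The alveolar type 2 markers, the other cells of the alveolar surface, had a median below 0 in all 3 couples (-0.11, -0.23 and -0.26), with 7, 10 and 11 of 12 genes below 0 in couples 1, 2 and 3; the difference from the type 1 genes was not tested. Sftpb, a surfactant protein, was at -0.52, -0.67 and -0.66 in couples 1, 2 and 3. Its mean was -0.62 ± 0.09 (SD, n = 3 couples), with an adjusted p of 0.671 (limma). Sftpa1 was at -0.30 ± 0.09, Sftpd at -0.37 ± 0.22 and Sftpc, whose promoter drives the oncogene, at -0.18 ± 0.15. With levels averaged over the dyes, these 4 surfactant protein genes had every tamoxifen level below every oil level, as had Lyz2, which macrophages share. That makes 5 of 12, beside 7.12% of all tested genes. The Sftpc ratio changed sign with the dye: 0.40, 0.21 and 0.09 in couples 1, 2 and 3 with tamoxifen in Cy5. With tamoxifen in Cy3 it was -0.44, -0.60 and -0.75, so the dyes do not settle its direction. Sftpd changed sign with the dye in couple 3 (0.03 and -0.39). The list had a median of -0.24 and 0 of 12 past the test.

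**Figure D4:**
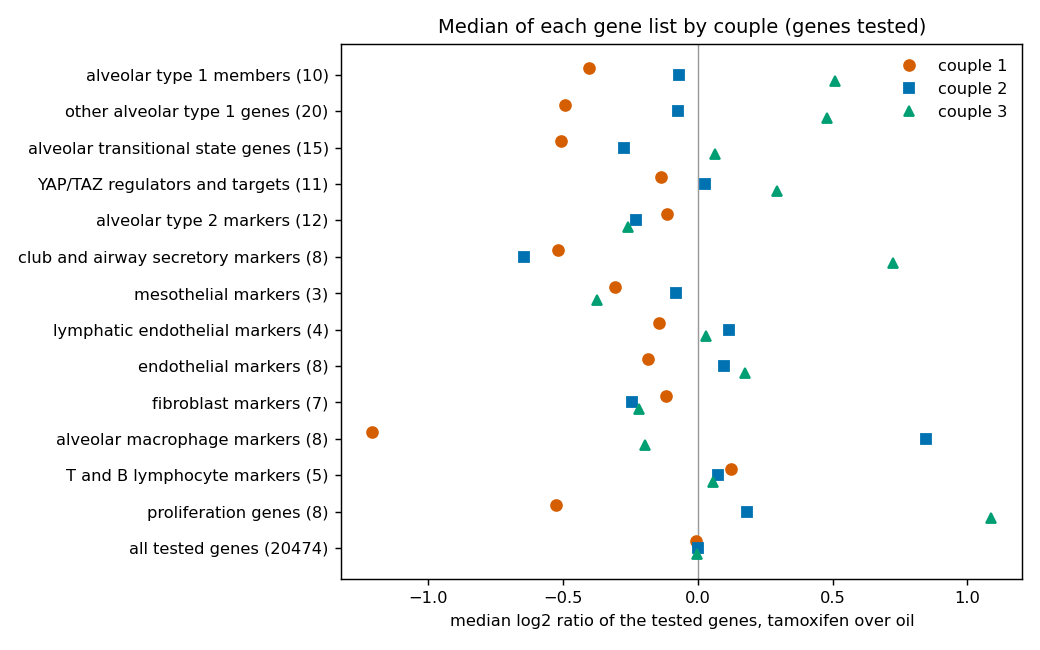
Median log2 ratio of tamoxifen over oil (horizontal axis) of each gene list by couple, with the number of tested genes in brackets and all tested genes at the bottom. Both type 1 lists and the proliferation genes run from below 0 in couple 1 to above 0 in couple 3. So do the transitional, YAP/TAZ, club, lymphatic and endothelial lists, while the type 2 markers stay between -0.26 and -0.11.

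Markers of other cells in the tumors gave several patterns, some of them like that of the type 1 members. Of 8 endothelial markers 7 were above 0. Their medians were -0.18, 0.10 and 0.17 in couples 1, 2 and 3, the same order as the type 1 members over a narrower range. Car4, a carbonic anhydrase of alveolar capillaries, was at -0.37 ± 0.46. The tight junction gene Cldn5 was at 0.32 ± 0.52 and the VEGF receptor gene Kdr at 0.12 ± 0.09 (SD, n = 3 couples). Their mean level was 9.40, 9.73 and 9.62 in tamoxifen samples 1, 2 and 3, against 9.63, 9.57 and 9.39 in oil samples 1, 2 and 3. Their part in the type 1 values was not tested.

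The 8 markers of alveolar macrophages differed most between couples, with medians of -1.21, 0.85 and -0.20. Fabp4 was at -0.94 ± 1.71, Mrc1 at -0.24 ± 0.45 and Marco at -0.997 ± 2.70. The 8 club and airway secretory markers had medians of -0.52, -0.65 and 0.72, with Cbr2 at -1.05 ± 1.35, Ltf at -0.24 ± 0.85 and Muc5b at 0.17 ± 0.61. Of 7 fibroblast markers 6 were below 0, with a median of -0.19, and the collagens Col1a2, Col1a1 and Col3a1 were at -0.32 ± 0.24, -0.22 ± 0.14 and -0.30 ± 0.27. Of 7 T and B lymphocyte markers 5 were tested and all were above 0, with a median of 0.15, Cd3d at 0.21 ± 0.13 and Ms4a1 at 0.15 ± 0.05 (SD, n = 3 couples throughout). None of these genes passed the test.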

How the data were processed

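RNA of lung tumors was measured on Agilent SurePrint G3 mouse arrays in 2 colours, 6 arrays on 1 slide and in 1 scan, so no batch within the series was tested. Per the file headers, the deposited scanner files give spot intensity by channel with a median local background, flags of 0 or 1 for spots above background, saturated or outlying, and a log10 ratio of Cy5 over Cy3 after the software's dye normalization (per the submitters' processing notes, version 12.0.3.1 of Agilent Feature Extraction). The deposited series table holds log2 ratios of Cy5 over Cy3: each column had a slope of 3.32 on that log10 ratio, and the column medians by couple were 0.14, -0.14 and -0.06 where Cy5 was tamoxifen and 0.13, -0.15 and -0.01 where it was oil. Scale and direction were thereby settled, with no centring beyond the software's. Probe positions are on mm9, and no exon annotation of that build was used.

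Intensities were corrected by normexp (offset 50) and loess-normalized within arrays in limma 3.58.1 under R 4.3.3, with the 3671 control spots at weight 0 and 89 to 132 outlying spots per array left out. No spot was saturated. Spots of a probe were averaged, and the brightest probe was used for each gene name. A gene was tested where 2 or more couples had both arrays well above background, in the tamoxifen or in the oil channel. The 2 dye-swapped arrays of a couple were averaged as tamoxifen over oil, and the 3 couples were tested against 0, two-sided, with lmFit and eBayes and Benjamini-Hochberg adjustment over 20474 genes. Same-numbered samples share their arrays, which is the pairing. Across genes their deviations from the group means correlated with r of 0.095, 0.158 and 0.161. Between samples of unlike number r ran from -0.200 to 0.088. Sharing arrays may by itself raise the first values, so they do not test the pairing. Levels are log2 signals per channel after loess and Aquantile, averaged over the dyes. Precision is limited by the number of couples, with a median SE of 0.098 on the log2 scale over all tested genes. The SE of the members was larger, from 0.106 (Gprc5a) to 0.264 (Spock2). The scripts were tested on simulated data.

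The members and the 12 other gene lists were chosen with earlier results of these data known. All 10 members are named, in each other list the 3 genes with the smallest p (some are not reported here) and in some its first genes, and for likeness the 2 genes with the highest Pearson r over the 6 sample levels. Promoters are from RefSeq (GRCm38.p6). The alternatives changed the background correction, normalization, filter, probe choice, source of values and treatment of replicates.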

Additional observations from a re-analysis of the deposited data

How the results depend on the processing

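Genes past the threshold numbered 0 in the fit of couple means, 56 when the 6 arrays were fitted with the couple as a replicate block (correlation 0.642), 9 with a dye term added to that block, chosen after seeing the data, and 1 with no replicate block, as 3 against 3 samples. Of the members 1, Aqp5, passed with the block, and 0 in each other fit run. Aqp5 stayed below 0 in 13 of 13 alternatives, between -0.996 and -0.707, with an adjusted p of 0.0317 to 0.960 (limma). Pdpn, Emp2, Akap5 and Gprc5a also kept their direction in 13 of 13. These counts are not separate checks of direction. Fits that changed only the filter or the replicate block kept the main ratios by construction, and the deposited values repeat the scanner software's ratios. Leaving out a couple cannot turn Aqp5, Akap5 or Gprc5a, each of which had the same sign in every couple. Median centring instead of loess moved Ager to 0.057 and Clic5 to 0.0081. With each couple left out in turn, Ager lay between -0.295 and 0.091, Clic5 between -0.35 and 0.23, Hopx between -0.074 and 0.224, Rtkn2 between -0.26 and 0.33 and Spock2 between -0.24 and 0.43. Ager and Clic5 turned positive without couple 1 and without couple 2, and Hopx, Rtkn2 and Spock2 turned negative without couple 3. The members' median was 0.23, 0.05 and -0.28 without couple 1, 2 and 3. The cause was not tested. With 3 couples, no statement here excludes a difference smaller than the spread between couples, and ratios of dim probes are pulled toward 0 by the offset.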
